A study of Mus musculus with 17 samples.

Results

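The genes described here are 10 of the 23282 gene symbols in the deposited table: the PIWI proteins *Piwil1*, *Piwil2* and *Piwil4*, and *Mov10l1*, *Pld6*, *Mael*, *Asz1*, *Ddx4*, *Tdrkh* and *Pnldc1*, which take part in making or using the small RNAs that PIWI proteins carry. They were taken by symbol and not by their values, though with earlier results of these data known, and all 10 were listed. The 17 RNA-seq libraries came from testicular cells of C57BL/6 mice (C57BL/6J in the study's methods) that were either wild type (WT) or *Nat10*-SKO, labelled Stra8-cre_Nat10_KO. SKO mice carried *Nat10* fl/-;Stra8-GFPCre, in which the Stra8 promoter drives Cre in germ cells before meiosis and the floxed allele loses exons 4 and 5 of *Nat10*, the enzyme that writes N4-acetylcytidine into RNA. Cells were sorted by Hoechst stain. The fractions were spermatogonia (SPG), spermatocytes before leptotene (PreL) and those in leptotene or zygotene (LZ), with 3 libraries of each genotype and stage except WT LZ, which had 2. The age of the mice used for these libraries is not given in the sources used here. The study describes its replicates as biological, but the labels tie no library to an animal, so the p-values measure the spread between these libraries.

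PIWI proteins are germline Argonaute proteins that bind piRNAs, small RNAs that guide them to the transcripts of transposons and of other genes. Long precursors are fed by the helicase MOV10L1 to the mitochondrial surface, where the nuclease PLD6 cleaves them, ASZ1 and TDRKH hold the machinery in place and the exonuclease PNLDC1 trims the 3′ ends. MAEL and the helicase DDX4 (the mouse vasa homologue) sit in the germ granules beside the mitochondria. In the mouse testis PIWIL4 acts in fetal germ cells and PIWIL2 from fetal germ cells into meiosis, while PIWIL1 appears in meiosis together with the abundant pachytene piRNAs, whose precursor genes and several pathway genes are switched on by the transcription factor A-MYB.

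The libraries held between 5812380 reads (in SKO LZ) and 13820953 reads (in WT LZ). *Nat10* itself, counted over all its exons, spanned 542 to 823 normalised read counts in 8 libraries of WT and 184 to 470 in 9 of SKO, without overlap. Read counts were normalised by median-of-ratios size factors, so a value states the level of a gene relative to the typical gene of the same library. On the deposited scale, calibrated by the ERCC spike-in RNA, the median difference of WT LZ from WT PreL over all genes was 1.86 on the log2 scale, against 0.13 on the normalised scale, a shift of 1.73. The shifts of the other stage and genotype comparisons ran from -0.25 to 0.98, and those of the interactions were 0.95 and -0.81. Changes below are relative to the typical gene. Some markers of later germ cells were called lower in SKO in each stage, and some of Leydig cells and macrophages higher. Those of other somatic cells moved less evenly. The summed level of 8 spermatid markers was 103 to 1024 RPM (reads scaled to the library's total) in WT libraries of all 3 stages and 1.11 to 10.1 in SKO libraries. Of the 8, *Catsper1* was at 0 in every SKO LZ library. The summed level of 9 markers of pachytene and later spermatocytes was 3913 to 6521 RPM in WT LZ and 291 to 392 in SKO LZ, where *Acrv1* was at 0 and *Tex101* gave most of the sum. In LZ, 8 of 8 spermatid and 8 of 9 pachytene markers were called lower in SKO, as was 1 of 10 leptotene and zygotene markers. Of all genes, 25.8% were called lower there. The 10 leptotene and zygotene markers summed to 5379 to 6488 RPM in WT LZ and to 3675 to 5575 in SKO LZ. In SPG they summed to 3370 to 3484 in WT and to 4696 to 5091 in SKO. In PreL the sums were 4979 to 5782 in WT and 6951 to 9914 in SKO. Of the 10, 0 were called higher in SKO SPG and 2 in SKO PreL, against 3.95% and 5.32% of all genes. Leydig markers summed to 5.52 to 48.3 RPM in WT and to 37.8 to 374 in SKO, macrophage markers to 5.56 to 27.6 and 15.3 to 157, and Sertoli markers to 30.6 to 1358 and 50.8 to 1077. These ranges and those that follow pool the 3 stages. In LZ alone the Sertoli sums overlapped, at 289 and 1358 RPM in WT and 603 to 758 in SKO. No endothelial marker was called between the genotypes in any stage. The remaining sums in WT and SKO were 0.777 to 15.8 and 6.22 to 65.2 for peritubular myoid cells, 0.187 to 3.11 and 1.51 to 6.57 for endothelial cells, 14.2 to 92.2 and 4.25 to 52.5 for undifferentiated spermatogonia, and 577 to 1061 and 410 to 1068 for differentiating spermatogonia. The study counted its sorted PreL and LZ cells by immunofluorescence and found most of them to be of the named stage. Few cells of its LZ sort were counted as pachytene. The genotype of the counted cells is not stated there. The part of cells of other types in the results below was not tested. In bulk samples such as these, fewer cells of a type and less RNA per cell cannot be told apart.

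Levels of different genes were compared as RPKM, the reads per kilobase of exon scaled to the library's total. In WT SPG, *Mael* stood highest at 204 ± 12.2 (SD, n = 3), followed by *Ddx4* at 143 ± 3.35 and *Mov10l1* at 60.02 ± 1.87. *Piwil2*, *Tdrkh* and *Asz1* came next with means from 31.3 to 35.8, and their libraries overlapped. *Pnldc1* (16.6), *Pld6* (4.82), *Piwil1* (2.36) and *Piwil4* (0.104) closed the order, each below the range of the gene before it. In WT LZ, *Piwil1* reached 52.5 and stood between *Mov10l1* (57.3) and *Piwil2* (49.5), with overlapping libraries. In SKO LZ the order again opened with *Mael* (189) and *Ddx4* (162), which now overlapped, and *Piwil1* was the ninth at 1.41. The calibrated scale multiplies each library by 1 factor and so keeps the order within a library. The order of the group means was also the same in all 6 groups.

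**Figure D1:**
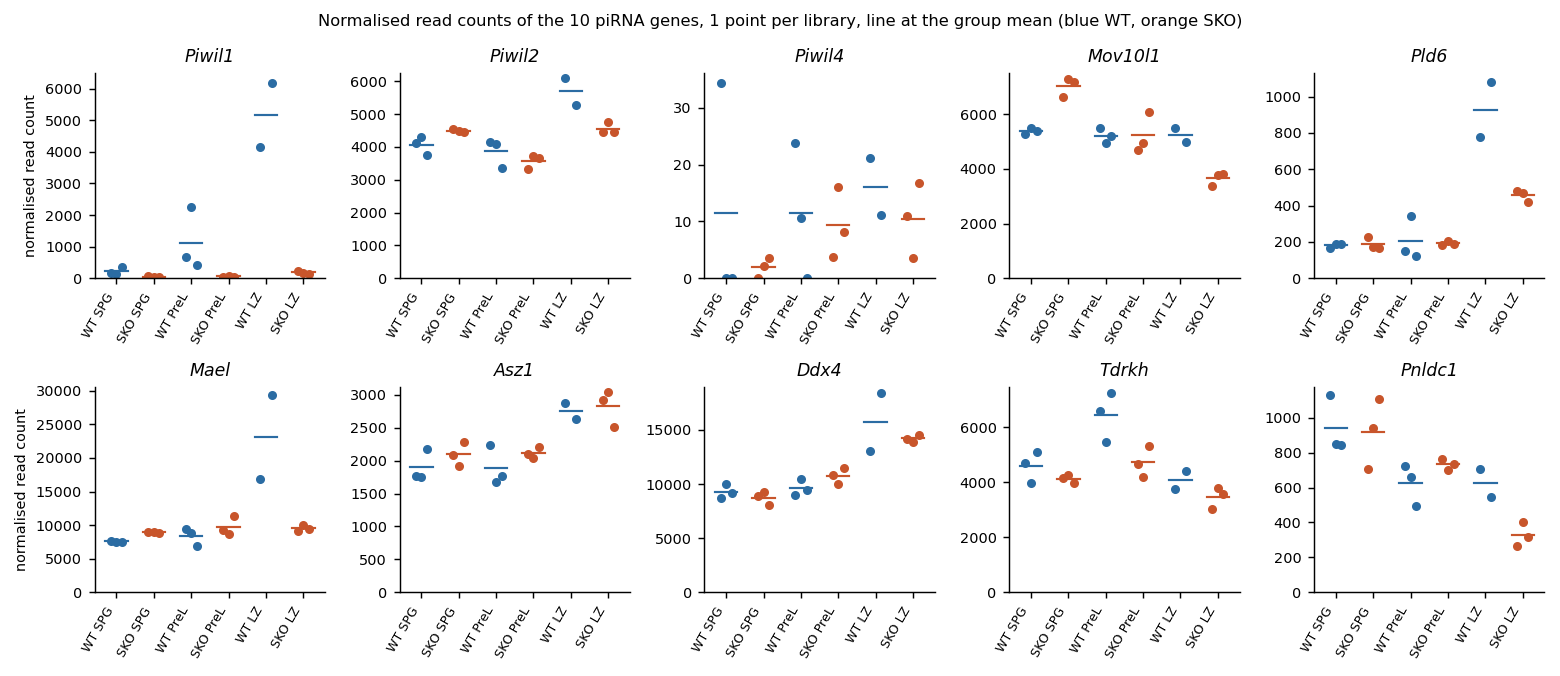
Normalised read counts (vertical axes, each from 0) of the 10 genes in the 17 libraries, with 1 point per library, the group mean as a line, WT in blue and SKO in orange. *Piwil1*, *Pld6* and *Mael* are highest in the 2 WT LZ libraries, and *Piwil4* stays below 35 in every library.

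*Piwil1* (also called Miwi, the PIWI protein of pachytene piRNAs; chr5:128702524-128755474 on the plus strand of GRCm38) gave the largest stage course of the 10 genes. In WT it stood at 167, 146 and 347 normalised read counts in the 3 SPG libraries, at 675, 2266 and 428 in PreL and at 4147 and 6180 in LZ. Every library of a later WT stage exceeded every library of the stage before it, as for 15.6% of all genes from SPG to PreL and 34.2% from PreL to LZ. WT PreL was 1.98 ± 0.52 above WT SPG on the log2 scale (SE, limma adjusted p = 0.0433), and WT LZ was 2.39 ± 0.57 above WT PreL (adjusted p = 0.0126). The first of these calls was lost when any of WT SPG 1, WT SPG 2, WT SPG 3, WT PreL 1 or WT PreL 2 was left out (adjusted p from 0.0548 to 0.116), in edgeR (adjusted p = 0.0534), with a pseudocount of 1 (adjusted p = 0.0537) and without a filter on low values (adjusted p = 0.126). The second was lost without WT PreL 1, WT LZ 2 or WT LZ 3 (adjusted p from 0.0524 to 0.13). From WT SPG to WT PreL, 4 of 9 pachytene and 6 of 7 spermatid markers were also called higher, against 2.54% of all genes. From WT PreL to WT LZ, 7 of 9 and 0 of 8 were, against 18.8%. Somatic markers moved in these steps too. From WT SPG to WT PreL, 3 of 6 Sertoli markers were called higher. From WT PreL to WT LZ, 6 of 6 Sertoli, 2 of 5 Leydig and 1 of 2 peritubular myoid markers were called higher. In that step 2 of 5 macrophage markers were called lower, against 7.8% of all genes. Library WT PreL 2, which had the highest *Piwil1* level of its group, also had the highest sum of pachytene markers there, 1371 RPM against 619 and 1071. The part of these cells in the *Piwil1* values was not tested.

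In SKO, *Piwil1* stayed low in all stages. It stood at 82.1, 26.7 and 33.2 in SKO SPG, at 50.9, 85.3 and 26.4 in SKO PreL and at 240, 156 and 146 in SKO LZ. These values rest on 12 to 48 reads per library. Each SKO library lay below all WT libraries of its stage, as for 14.4% of all genes in SPG, 20.0% in PreL and 39.8% in LZ. The genotype difference was -1.90 ± 0.50 in SPG (adjusted p = 0.0265), -3.85 ± 0.58 in PreL (adjusted p = 0.00276) and -4.82 ± 0.30 in LZ (adjusted p = 5.18e-05), with group means 4.65, 20.7 and 28.6 times lower in SKO. The call in SPG was lost without WT SPG 1, WT SPG 3, SKO SPG 3 or SKO SPG 4 (adjusted p from 0.0586 to 0.155) and without a filter on low values (adjusted p = 0.12). The calls in PreL and in LZ held under each alternative run. *Piwil1* did rise within SKO from PreL to LZ, by 1.68 ± 0.41 (adjusted p = 0.0118), a call lost without SKO LZ 1 (adjusted p = 0.0562). The difference between the genotype effects of successive stages was -1.86 ± 0.74 for PreL against SPG (adjusted p = 0.247) and -0.88 ± 0.78 for LZ against PreL (adjusted p = 0.399), so neither step passed the test. The summed pachytene markers moved with *Piwil1* in LZ, as the values above show. In PreL their sums overlapped, at 619 to 1371 RPM in WT and 737 to 1020 in SKO. Of the 9 markers, 5 were called lower in SKO PreL and 0 higher, against 5.83% and 5.32% of all genes. The largest differences were those of *Ldhc* (-6.48), *Pgk2* (-6.48) and *Cetn1* (-6.26). In SPG, 3 of the 9 were called lower and 0 higher, against 2.06% and 3.95%. Of the spermatid markers, 5 of 7 were called lower in SPG and 6 of 7 in PreL, and 0 higher in either. The part of these markers in the *Piwil1* differences was not tested.

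**Figure D2:**
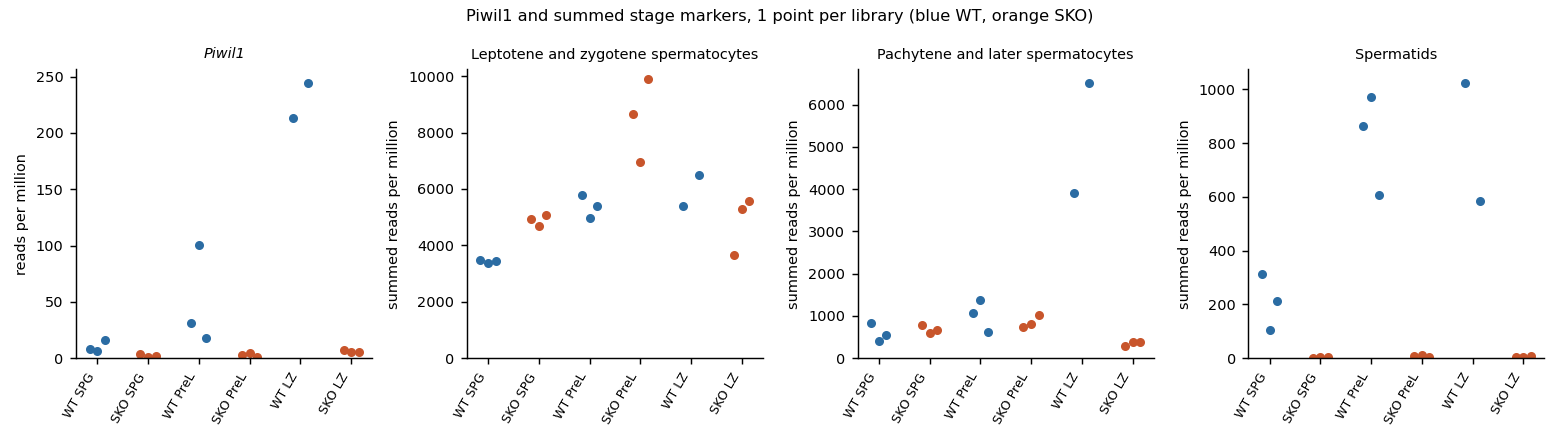
*Piwil1* (left, RPM) and the summed RPM of the marker lists of leptotene and zygotene spermatocytes, of pachytene and later spermatocytes and of spermatids, with 1 point per library, WT in blue and SKO in orange. *Piwil1* and the pachytene and spermatid markers are high in WT LZ and low in SKO LZ, while the leptotene and zygotene markers overlap between the genotypes in LZ.

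*Piwil2* (Mili), the PIWI partner of the early piRNA populations, was measured with 818 to 4340 reads per library. It stood at 4129, 4297 and 3755 normalised read counts in WT SPG and at 6104 and 5286 in WT LZ, and at 4455, 4748 and 4463 in SKO LZ. Both WT LZ libraries lay above the SKO LZ libraries, as for 39.8% of all genes. The difference in LZ was -0.33 ± 0.15 (adjusted p = 0.0921) and did not pass the test, and those in SPG (0.13 ± 0.12) and PreL (-0.10 ± 0.13) did not either. *Piwil4* (Miwi2), the nuclear PIWI protein of fetal germ cells, had 0 to 22 reads per library. With 15 and 6 reads in WT LZ and 2, 1 and 4 in SKO LZ it fell below the mean of 10 reads required for the test in every comparison, and no difference was detectable at this depth. Its exons share 137 bases with the antisense gene Gm10706.

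*Pld6* and *Mael* were also higher in WT LZ than in WT PreL. *Pld6*, the mitochondrial endonuclease, stood at 169, 190 and 186 in WT SPG, at 151, 340 and 122 in WT PreL and at 776 and 1081 in WT LZ. WT LZ exceeded WT PreL by 2.11 ± 0.45 (adjusted p = 0.00826), without overlap, and the call was lost without WT LZ 3 (1.88, adjusted p = 0.0862). From WT PreL to WT LZ, 34.2% of all genes were higher without overlap. In SKO LZ *Pld6* stood at 479, 467 and 422, below both WT LZ libraries, as for 39.8% of all genes. The difference of SKO LZ from WT LZ was -1.02 ± 0.24 (adjusted p = 0.00889). This value lies next to the fold threshold of 1, and without WT LZ 3 (-0.78), without SKO LZ 3 (-0.95), in edgeR (-0.98), with a pseudocount of 50 (-0.99) or in 1 fit of all 17 libraries (-0.99) it no longer passed. Within SKO, *Pld6* also rose from PreL (183, 204 and 187) to LZ, by 1.19 ± 0.18 (adjusted p = 0.0013). The interaction of genotype with the step from PreL to LZ was -1.03 ± 0.47 (adjusted p = 0.0882) and did not pass, but passed without WT PreL 2 (-1.45, adjusted p = 0.0085), the library with the highest *Pld6* level of its group, and on the calibrated scale (-1.87, adjusted p = 0.00515).

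*Mael*, a germ granule protein of the piRNA pathway, stood at 9365, 8764 and 6808 in WT PreL and at 16903 and 29424 in WT LZ, a rise of 1.29 ± 0.25 (adjusted p = 0.00596). In SKO it remained between 8688 and 11310 in all libraries of the 3 stages. The genotype difference was 0.21 ± 0.11 in SPG (adjusted p = 0.216), 0.24 ± 0.16 in PreL (adjusted p = 0.313) and -1.24 ± 0.25 in LZ (adjusted p = 0.00496). Without WT LZ 3, the higher of the 2 WT LZ libraries, the difference in LZ was -0.85 and the rise in WT was 0.91, both within the fold threshold. WT LZ 3 also had the higher sum of pachytene markers, 6521 RPM against 3913 in WT LZ 2. Its Sertoli markers summed to 289 RPM, against 1358 in WT LZ 2. The part of these cells in the *Mael* and *Pld6* values was not tested. The genotype effect on *Mael* in LZ differed from that in PreL by -1.46 ± 0.25 (adjusted p = 0.000144 for the interaction), a call that held under each alternative run. On the calibrated scale *Mael* stood 0.79 higher in SKO LZ than in SKO PreL (adjusted p = 0.000643), while relative to the typical gene the step was -0.06 ± 0.14 (adjusted p = 0.778).

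The sequences before the annotated starts of these 3 genes, which rose together in WT LZ, and of *Asz1*, which passed in no genotype comparison, are shown because they hold or lack the motifs of transcription factors known in meiotic prophase. They were taken from the RefSeq promoter table for GRCm38.p6, trimmed to the longest run of bases outside annotated exons and written 5′ to 3′ on the strand of the gene. Capitals mark CACGTG, the E-box.
Piwil1, chr5:128736030-128736173, plus strand: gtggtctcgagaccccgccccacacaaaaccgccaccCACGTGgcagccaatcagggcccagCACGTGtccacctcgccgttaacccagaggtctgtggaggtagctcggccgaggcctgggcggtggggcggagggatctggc
Pld6, chr11:59787658-59787907, minus strand: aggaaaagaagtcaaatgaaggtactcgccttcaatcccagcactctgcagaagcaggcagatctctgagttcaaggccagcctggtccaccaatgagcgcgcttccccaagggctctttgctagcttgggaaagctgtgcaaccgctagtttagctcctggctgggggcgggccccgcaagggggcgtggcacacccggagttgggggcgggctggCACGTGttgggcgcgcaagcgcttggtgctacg
Mael, chr1:166238748-166238994, minus strand: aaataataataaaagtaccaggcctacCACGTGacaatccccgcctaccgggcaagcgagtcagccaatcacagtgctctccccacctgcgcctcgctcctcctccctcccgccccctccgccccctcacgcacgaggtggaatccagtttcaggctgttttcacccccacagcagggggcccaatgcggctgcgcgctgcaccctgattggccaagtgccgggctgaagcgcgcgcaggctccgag
Asz1, chr6:18109062-18109311, minus strand: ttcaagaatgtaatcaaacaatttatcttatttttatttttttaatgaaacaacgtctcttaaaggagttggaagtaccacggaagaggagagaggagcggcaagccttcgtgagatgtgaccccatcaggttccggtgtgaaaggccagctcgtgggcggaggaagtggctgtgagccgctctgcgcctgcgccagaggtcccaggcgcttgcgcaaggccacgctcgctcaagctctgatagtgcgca
The *Piwil1* window also held GGCAGTT, the core of the A-MYB motif, in capitals in the following stretch at its border with an exon of the gene.
Piwil1 A-MYB core, chr5:128736161-128736187, plus strand: ggagggatctGGCAGTTggggctgtta

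The motifs were searched on both strands in the 250 bases before each start, for 10 windows of 8 of the genes, *Piwil4* and *Pld6* having 2 each. CACGTG was found in 5 windows of 5 genes (*Piwil1*, *Mov10l1*, *Pld6*, *Mael* and *Ddx4*) and in 6.02% of the 32851 windows of the table. CACGTG holds the bases CG, and these 5 windows had 14 to 31 CG pairs and 61.6% to 70.4% G and C. The medians over all windows were 6 and 52.4%, and the share among windows of like composition was not computed. GGCAGTT was found in *Piwil1* alone and in 3.33% of all windows. The E2F motif TTCCCGC was found in *Ddx4* alone (3.82% of all windows), and the STRA8 motif CNCCTCAG in none of the 10 (6.42% of all windows). The letters of the motifs do not overlap each other in these windows, and a match describes a sequence and not a bound site. Genes with the E-box included *Ddx4* and *Mov10l1*, which were not called in any comparison of genotypes within a stage.

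*Mov10l1*, the helicase that hands on piRNA precursors, stood at 5286, 5484 and 5393 in WT SPG and at 6641, 7299 and 7172 in SKO SPG, without overlap. In SPG, 15.2% of all genes were higher in SKO without overlap. The difference of 0.37 ± 0.11 had an adjusted p of 0.049 but lay within the fold threshold, and it was 0.10 (adjusted p = 0.762) on the calibrated scale. In LZ, *Mov10l1* stood at 5498 and 4979 in WT and at 3366, 3785 and 3828 in SKO. The difference of -0.53 ± 0.15 (adjusted p = 0.0192) again lay within the fold threshold. The genotype effect in LZ differed from that in PreL by -0.52 ± 0.17 (adjusted p = 0.0233 for the interaction), and the call was lost without SKO PreL 3, WT LZ 2 or SKO LZ 1 (adjusted p from 0.0556 to 0.0721), in edgeR (adjusted p = 0.0923) and with the replicate block (adjusted p = 0.0607).

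*Pnldc1*, the trimming exonuclease, stood at 709 and 544 in WT LZ and at 267, 404 and 318 in SKO LZ, from 49 to 114 reads per SKO library. The difference of -0.94 ± 0.27 had an adjusted p of 0.0233, short of the fold threshold, which it passed on the calibrated scale (-1.07, adjusted p = 0.0204) and without SKO LZ 2 (-1.08, adjusted p = 0.0369). In SKO, *Pnldc1* fell from 765, 700 and 735 in PreL by 1.19 ± 0.19 on the log2 scale in LZ (adjusted p = 0.0015). On the calibrated scale this step was -0.35 (adjusted p = 0.244). In WT the same step was -0.14 ± 0.29 (adjusted p = 0.734), and 1.67 on the calibrated scale (adjusted p = 0.000567). The interaction was -1.15 ± 0.33 (adjusted p = 0.00966) and held under each alternative run. Its exons share 144 bases with the antisense gene AL589878.1.

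*Asz1*, *Ddx4* and *Tdrkh* passed the test of genotype in no stage. *Asz1*, which anchors the machinery at mitochondria, stood at 2878 and 2632 in WT LZ and at 2919, 3048 and 2516 in SKO LZ, with overlapping groups and a difference of 0.02 ± 0.16 (adjusted p = 0.928; -0.11 on the calibrated scale). *Ddx4*, the general germ cell helicase, stood at 13071 and 18436 in WT LZ and at 14182, 13914 and 14565 in SKO LZ, also overlapping, with a difference of -0.14 ± 0.20 (adjusted p = 0.586). Within SKO, LZ exceeded PreL by 0.38 ± 0.12 for *Asz1* (adjusted p = 0.0382) and by 0.37 ± 0.13 for *Ddx4* (adjusted p = 0.047), both within the fold threshold. *Tdrkh*, the Tudor protein that recruits the trimmer, stood at 6578, 5464 and 7246 in WT PreL and at 4655, 4181 and 5314 in SKO PreL, without overlap, as for 20.0% of all genes in that direction. Its difference in PreL was -0.44 ± 0.14 (adjusted p = 0.0659), and 0.29 (adjusted p = 0.146) on the calibrated scale. In WT it was lower in LZ (3737 and 4396) than in PreL by -0.80 ± 0.20 (adjusted p = 0.0157), within the fold threshold, and on the calibrated scale higher by 1.03 (adjusted p = 0.000977). The exons of *Tdrkh* share 2255 of 6142 bases with *Oaz3*, a spermatid gene on the other strand. The counting strand is not stated, so reads of the overlap cannot be told apart. *Oaz3* was at 51.5 to 61.1 RPM in WT PreL and 1.42 to 4.70 in SKO PreL, against 242 to 309 and 209 to 232 for *Tdrkh*.

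**Figure D3:**
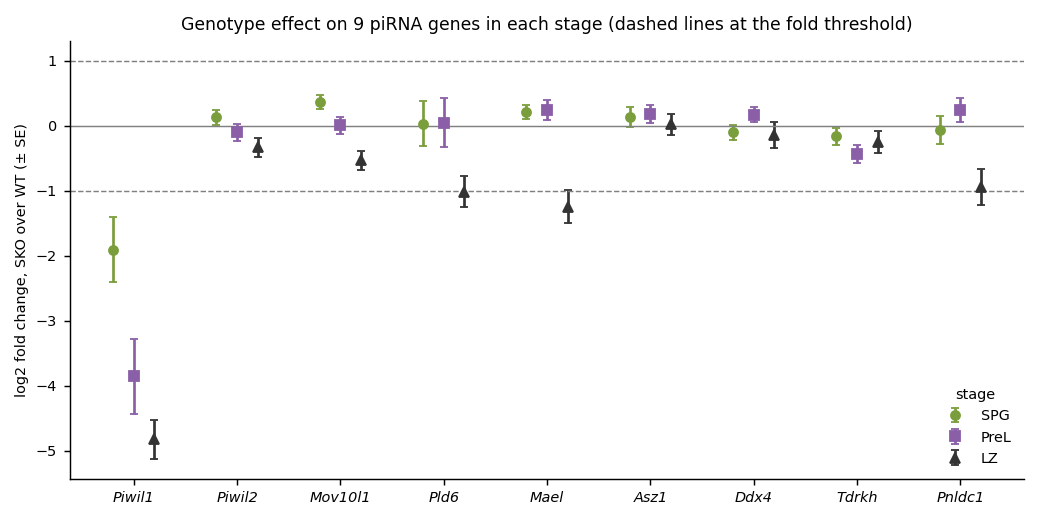
Log2 fold change of SKO over WT with its standard error (vertical axis) for the 9 genes tested, in SPG (circles), PreL (squares) and LZ (triangles), with dashed lines at the fold threshold. *Piwil1* lies below -1 in all stages, and *Pld6* and *Mael* in LZ alone.

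The 9 genes tested can be read against all genes of each fit, called at an adjusted p under 0.05 and a log2 fold change beyond 1. In SPG, SKO had 1 of the 9 lower and 0 higher, against 2.06% of all 12846 genes lower and 3.95% higher (265 lower and 508 higher, or 578 and 399 on the calibrated scale). In PreL, SKO had 1 lower and 0 higher, against 5.83% and 5.32% of all genes (765 and 699, or 585 and 3459 on the calibrated scale). In LZ, 3 of the 9 were lower and 0 higher, against 25.8% and 13.4%, so that the share of the piRNA genes called lower (3 of 9) was near that of all genes. Without WT LZ 3 the count was 1, against 17.7% of all genes lower in that fit. Without the fold threshold, 5 of the 9 were lower in LZ and 0 higher, against 31.1% and 19.8%. The WT and SKO libraries of LZ did not overlap for 6 lower genes and 0 higher genes, against 39.8% and 30.3%. The median difference in LZ was -0.53 over the 9 genes and -0.13 over all genes. No count of 0 higher genes changed in edgeR or DESeq2, and at an unadjusted p under 0.05 it was 1 gene in SPG (*Mov10l1*) and 0 in PreL and LZ.

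Between stages, WT PreL had 1 gene higher than WT SPG and 0 lower, against 2.54% and 1.21% of all genes. WT LZ had 3 genes higher than WT PreL (*Piwil1*, *Pld6* and *Mael*) and 0 lower, against 18.8% and 7.8% (2585 and 1073, or 10992 and 15 on the calibrated scale). Without WT LZ 3 the count was 0, against 5.87% of all genes higher in that fit, and on the calibrated scale it was 9. The comparison of WT LZ with WT PreL shares the WT LZ libraries with that of the genotypes in LZ, so the 3 genes are not called independently in both. SKO PreL differed from SKO SPG in 0 of the 9 genes in limma, edgeR and DESeq2, with 1 higher and 2 lower at an unadjusted p under 0.05, against 1.63% of all genes called higher and 0.955% lower (210 and 123, or 5657 and 30 on the calibrated scale, where 5 of the 9 were higher). SKO LZ had 2 genes higher than SKO PreL (*Piwil1* and *Pld6*) and 1 lower (*Pnldc1*), against 10.6% and 6.93% (1319 and 865, or 4409 and 152 on the calibrated scale, where 5 were higher and 0 lower). Without SKO LZ 1 the number higher was 1. For the interaction, called at an adjusted p under 0.05, the effect in PreL differed from that in SPG for 0 of the 9 genes in the 3 tools, with 2 more negative at an unadjusted p under 0.05, against 0.111% of all genes more negative and 0.251% more positive (15 and 34, or 147 and 5938 on the calibrated scale, where 7 of the 9 were more positive). From PreL to LZ the genotype effect became more negative for 3 genes and more positive for 0, against 23.1% and 15.1% (3122 and 2040, or 6575 and 749 on the calibrated scale, where 8 of the 9 were more negative).

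The rest of the pathway was examined with a list of 22 further genes, of which 21 were listed, 3 of them under older symbols. In SPG, 0 of 20 tested passed in either direction, against 2.06% of all genes lower and 3.95% higher. In PreL, 1 of 19 was lower and 0 higher, against 5.83% and 5.32% of all genes. The gene was *Tdrd6*, a Tudor protein of germ granules, at 120 to 355 reads in WT and 2 to 10 in SKO (-4.42 ± 0.49, adjusted p = 0.000538). In LZ, 8 of 20 were lower and 1 higher, against 25.8% and 13.4% of all genes, and the median difference was -0.71 against -0.13 over all genes. *Tdrd6* fell there from 2394 and 4921 reads to between 1 and 4 reads. *Tdrd5*, another Tudor protein of germ granules, had a difference of -2.27 ± 0.26 (adjusted p = 0.000309). The transcription factor *Tcfl5*, which acts beside A-MYB, had a difference of -2.22 ± 0.30 (adjusted p = 0.000763). *Tdrd1*, *Tdrd7*, *Tdrd12*, *Gtsf1* and *Adad2* were the other genes called lower, and the 1 called higher was listed as Gm13718, the older symbol of *Btbd18*. *Mybl1*, which encodes A-MYB, had mean normalised read counts of 1.71 in WT SPG (0 to 2 reads per library), 196 in WT PreL and 307 in WT LZ. In SKO the means were 58.7, 295 and 170 in the same order, and the difference in LZ of -0.77 ± 0.37 (adjusted p = 0.121) was not called. In WT, 6 of 20 rose from PreL to LZ and 1 fell, against 18.8% and 7.8% of all genes.

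**Figure D4:**
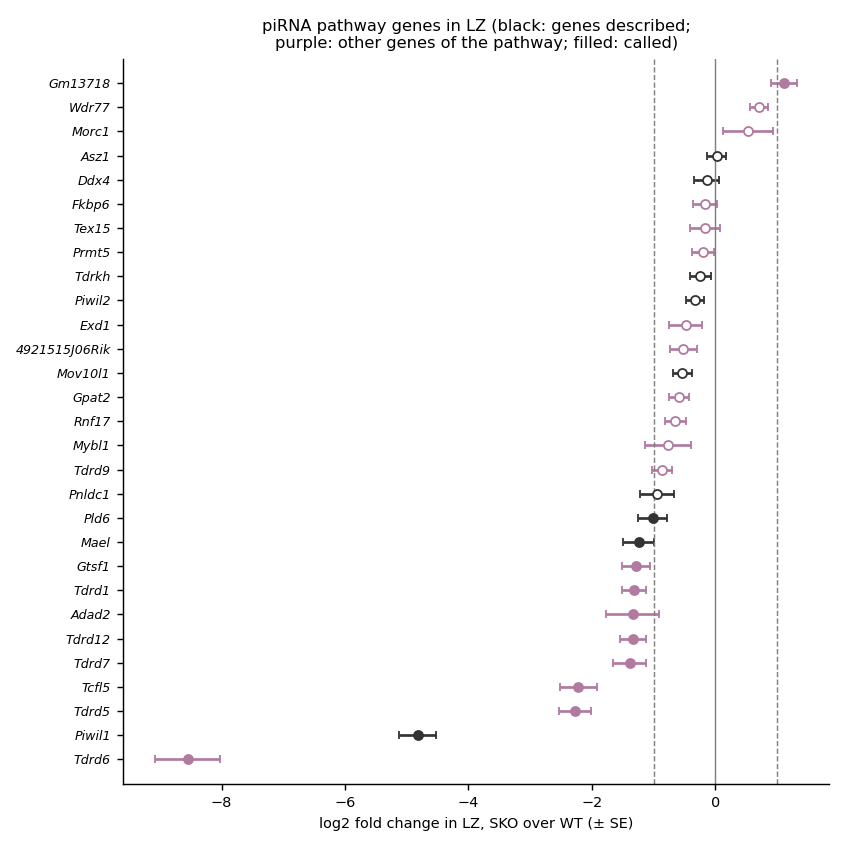
Log2 fold change of SKO over WT in LZ with its standard error (horizontal axis) for the 9 genes tested (black) and 20 other genes of the pathway (purple), ordered by value. Filled points passed the test, and dashed lines mark the fold threshold. The value of *Tdrd6* rests on 1 to 4 reads in SKO and depends on the added pseudocount.

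The genes most like each member were ranked by the root mean square difference of the 6 centred group means (log2 scale), among the 8666 genes that averaged 100 reads or more. *Piwil1* had no gene within 0.25, and the nearest were *Cox8c* (0.304), *Dnahc7a* and *Lass3*. For *Pld6* the nearest was *Rpl10l* (0.0742), then *Atxn2l* and *Pabpc1*, and 0.185% of the genes lay within 0.25. *Mael* was nearest to *Sgta*, *Cnpy3* and *Pex16*, and *Pnldc1* to 1110007C09Rik, *Ddost* and *Scpep1*. The genes with little change had many near neighbours. *Piwil2* was nearest to *Crbn*, AI837181 and *Kpnb1*, *Mov10l1* to *Mlx*, *Ddrgk1* and *Cog3*, *Asz1* to *Josd1*, *Tbc1d12* and *Mdm1*, *Ddx4* to *Fbxo30*, *Nup37* and *Dgcr14*, and *Tdrkh* to *Cbx1*, *Banf1* and *Blm*. Between 4.84% and 10.2% of the genes lay within 0.25 of these 5. Among the members themselves, *Asz1* and *Ddx4* were the closest pair (0.132).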

How the data were processed

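RNA-seq libraries were made with Smart-seq2 from oligo(dT)-primed RNA with an ERCC spike-in. The authors mapped reads to the mouse genome (mm10) and counted uniquely mapped reads per gene; their processing notes name TopHat2 2.1.1, Cufflinks 2.2.1, HTSeq 0.11.2 and DESeq2, and the strand setting is not given in the sources used here. The deposited signal values are the read counts of a library multiplied by 1 calibration factor from ERCC and cell input. Dividing by that factor gave whole reads, within 0.01, for 100% of the values.

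For each comparison, size factors (median of ratios) rescaled the values of its libraries. Genes averaging fewer than 10 recovered reads were left out, and limma 3.58.1 under R 4.3.3 tested log2(value + 10) with a mean-variance trend, two-sided, with Benjamini-Hochberg adjustment across all genes of the fit. The added 10 makes fold changes of weakly expressed genes too small. Values printed per library were scaled over all 17 libraries. Genes were called where the adjusted p was under 0.05 and the log2 fold change beyond 1 in size, and the interaction, fitted over all 17 libraries, at the adjusted p alone. limma was chosen because the deposited values are calibrated; edgeR 4.0.16 and DESeq2 1.42.0 on the recovered reads were alternatives, and the tests were tried on simulated data. The depth of 5812380 to 13820953 reads per library limits the precision of the lowest genes.

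The 10 genes, the marker and pathway lists and the motifs were chosen from general knowledge with earlier results of these data known. All 10 genes are named, of each list at most the 3 called genes with the largest change are given with values (the other names of small counts, *Mybl1* and *Oaz3* were chosen after their values were seen), and for each gene but *Piwil4*, which lies below 100 reads, the 3 genes of most similar pattern. Positions, exon lengths and overlaps came from GENCODE M21 (GRCm38), and promoter sequences from RefSeq (GRCm38.p6).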

Additional observations from a re-analysis of the deposited data

Results flagged for a closer look

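The effect of the genotype differed between LZ and PreL for 3 of the 9 genes tested, by the interaction term of limma over all 17 libraries. For *Mael* the effect in LZ was lower than that in PreL by -1.46 ± 0.25 on the log2 scale (adjusted p = 0.000144), with SKO below WT in every LZ library pair. In LZ, 39.8% of all genes were lower in SKO without overlap. For *Pnldc1* the term was -1.15 ± 0.33 (adjusted p = 0.00966). For *Mov10l1* it was -0.52 ± 0.17 (adjusted p = 0.0233), the smallest of the 3, and this call was lost in 5 of 26 alternatives (adjusted p up to 0.0923), while those of *Mael* and *Pnldc1* held in all 26. Of all 13530 genes, 23.1% had a more negative effect in LZ, and the summed pachytene markers also differed between genotypes in LZ (3913 to 6521 against 291 to 392 RPM), whose part in these values was not tested.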

How the results depend on the processing

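The alternatives concerned the scaling (calibrated values as deposited, or TMM), the pseudocount (1 or 50), the filter (none, or 50 reads on average), the tool (edgeR or DESeq2), the fold threshold (none), 1 fit of all 17 libraries, a replicate block and single libraries left out; where 1 WT LZ library remained, it was assumed to vary like the other group. On the calibrated scale the direction changed, with an adjusted p under 0.05 in either fit, for *Piwil2* between the genotypes in PreL (0.62), for *Mov10l1* (1.70), *Tdrkh* (1.03) and *Pnldc1* (1.67) from WT PreL to LZ, for *Piwil2* (0.73), *Mov10l1* (0.62) and *Pnldc1* (0.75) from SKO SPG to PreL, for *Mov10l1* (0.31), *Mael* (0.79) and *Tdrkh* (0.37) from SKO PreL to LZ, for the interaction of PreL with SPG of *Piwil2* (0.76), *Mov10l1* (0.63) and *Tdrkh* (0.72) and for that of LZ with PreL of *Tdrkh* (-0.66). These values include the shift of the median gene. The calibrated scale also moved the number of genes called higher to 9 from WT PreL to LZ, to 5 from SKO SPG to PreL, to 5 from SKO PreL to LZ (0 lower) and to 7 for the interaction of PreL, and the number more negative for that of LZ to 8.

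Without a filter, 0 genes were lower in SKO SPG and 0 higher in WT PreL, where edgeR and a pseudocount of 1 also gave 0. Without the fold threshold, 1 gene was higher in SKO SPG, 5 were lower in SKO LZ, 1 lower from WT PreL to LZ, and 3 lower and 5 higher from SKO PreL to LZ. With a mean of at least 50 reads, 1 was higher from SKO PreL to LZ. Leaving out libraries gave 0 to 1 genes lower in SKO SPG, 1 to 4 lower in SKO LZ, 0 to 1 higher from WT SPG to PreL, 0 to 3 higher from WT PreL to LZ and 1 to 2 higher from SKO PreL to LZ. The cause of these changes was not tested. A further 74 fold changes of single genes switched sign with no adjusted p under 0.05 in either fit.

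Libraries of equal number deviated from their group means with correlations of -0.19 to 0.13. Between the genotypes in LZ these were 0.099 and 0.086, and each library matched best with its own number. In PreL the libraries numbered 1 did not (-0.053). With so few libraries per group these correlations cannot exclude pairs. The main fits did not take the numbers as pairs. In the replicate block, *Piwil1*, *Pld6* and *Mael* were called lower in SKO LZ, and *Mov10l1* was lost for the interaction of LZ with PreL (-0.47, adjusted p = 0.0607). The block could not be fitted for WT LZ against WT PreL, which share 1 number.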
